A study of Mus musculus with 12 samples.

Results

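The complement genes described here are 9 genes of components and regulators of the complement system, taken by symbol from the 25553 genes of 1 expression table: C3, Cfb, C4b, C1qa, C1qb, C1qc, Cfi, Cd55 and Cd59a. All 9 had a row in the table and all 9 passed the filter on low values, an FPKM of at least 1 in at least 3 libraries. They were followed in kidneys of 12 wild-type (WT) mice. FPKM is the number of sequenced fragments of a gene scaled to its length and to the depth of the library, so levels of different genes can be set side by side.

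Complement is a cascade of plasma proteins and cell surface proteins that marks microbes and damaged cells and can break their membranes. The classical pathway starts when C1q binds a surface and its proteases cut C4 and C2, the lectin pathway starts from sugar-binding proteins, and the alternative pathway runs on C3 and factor B. All routes meet at the cleavage of C3, after which the terminal proteins build a pore in the membrane. Factor I and a set of membrane proteins keep the cascade in check on the body's own cells. The liver makes most of the circulating proteins, and kidney tubules and resident macrophages make some of them locally.

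Preconditioned RIRI mice breathed 8% oxygen in a chamber at normal pressure for 2 h, 4 h and 8 h on 3 successive days and then had renal ischemia-reperfusion injury (RIRI), in which both renal pedicles were clamped for 45 min and the kidneys were taken after 12 h of reperfusion. Normoxic RIRI mice had the same injury without the chamber. Preconditioned sham mice had the chamber sessions and a sham procedure, and normoxic sham mice had the sham procedure alone. Each group had 3 separate mice, each library is 1 mouse, all libraries carry the same batch number, and the labels give neither the sex nor the age of the mice. The labels do not say which part of the kidney was taken, and 1 time point cannot show a course. In bulk tissue, fewer cells of a type and less RNA per cell cannot be told apart. All 12 proximal tubule markers examined were measured in every library, with Lrp2, an endocytic receptor of the proximal tubule, at 46.2 to 209.6 FPKM. Libraries held 33107581 to 35713247 reads, as derived from the FPKM values, and in each of them 11301 to 11804 genes reached an FPKM of 1.

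The genes lie in a few places of the genome (GRCm38.p6, RefSeq). On chromosome 17, C3 spans 57203967 to 57228136, C4b 34728139 to 34743902 and Cfb 34856374 to 34862514, the last pair lying in the class III part of the major histocompatibility complex. The 3 C1q genes form a cluster on chromosome 4, with C1qb at 136880126 to 136886200, C1qc at 136889801 to 136892936 and C1qa at 136895916 to 136898844, all on the minus strand. Cfi spans 129836727 to 129875332 on chromosome 3, Cd55 130429798 to 130465009 on chromosome 1 and Cd59a 104095753 to 104115410 on chromosome 2. Promoter sequences were at hand for 5 of the 9 genes, C3, C1qb, C1qc, Cd55 and Cd59a. Those of C3, whose highest FPKM stood furthest over its lowest among the 9, by a factor of 54.6, and of the C1q neighbours C1qb and C1qc are shown, from 250 bases before to 50 bases after the transcript start that the promoter table uses, 5′ to 3′ on the strand of the gene. That start is the first base of the gene as given above for C3 and C1qb, and it lies 22 bases inside the gene for C1qc, 48 for Cd59a and 2265 for Cd55; motif positions are counted from it. C3 is chr17:57228087-57228386, C1qb chr4:136886151-136886450 and C1qc chr4:136892865-136893164, all on the minus strand, and capitals mark the motif matches.
C3: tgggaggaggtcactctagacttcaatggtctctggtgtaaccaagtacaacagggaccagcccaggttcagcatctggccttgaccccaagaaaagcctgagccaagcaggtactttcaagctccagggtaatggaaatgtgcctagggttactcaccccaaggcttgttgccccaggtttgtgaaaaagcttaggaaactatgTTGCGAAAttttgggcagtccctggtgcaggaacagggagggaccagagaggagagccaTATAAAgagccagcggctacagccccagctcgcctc
C1qb: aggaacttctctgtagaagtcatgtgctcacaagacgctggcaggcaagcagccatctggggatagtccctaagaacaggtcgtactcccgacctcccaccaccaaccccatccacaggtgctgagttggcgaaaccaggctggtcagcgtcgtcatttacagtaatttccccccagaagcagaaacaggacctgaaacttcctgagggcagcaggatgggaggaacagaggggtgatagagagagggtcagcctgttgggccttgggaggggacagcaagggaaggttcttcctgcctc
C1qc: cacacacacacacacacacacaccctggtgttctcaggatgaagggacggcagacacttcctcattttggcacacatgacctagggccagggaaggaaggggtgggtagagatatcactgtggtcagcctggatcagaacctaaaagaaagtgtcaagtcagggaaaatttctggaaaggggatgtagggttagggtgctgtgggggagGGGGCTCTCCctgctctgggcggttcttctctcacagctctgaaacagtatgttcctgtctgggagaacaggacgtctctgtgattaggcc
The motifs searched, on both strands, were the core of C/EBP sites (TTGCNNAA), the gamma-activated site (TTCNNNGAA), the TATA box (TATAAA), the core of interferon-stimulated elements (GAAA and GAAA with 2 free bases between) and the NF-kB consensus. The C3 window held 1 C/EBP core, TTGCGAAA, whose first base lies at position -45 from that start, and 1 TATAAA whose first base lies at position 15. The C1qc window held 1 match to the NF-kB consensus at position -41, the Cd59a window held 1 interferon-stimulated core at position -187, and the windows of C1qb and Cd55 held none of these motifs. Of all 32851 promoter windows of the table, 10.8% held the C/EBP core, 13.6% the TATA box, 8.46% the NF-kB consensus, 8.3% the gamma-activated site and 3.44% the interferon-stimulated core. A match describes letters in the window and says nothing about binding.

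Across the 12 kidneys the 9 genes differed in level and in pattern. Cfb was the highest of the 9 in every library and made up 45.5 to 51.3% of their summed FPKM in preconditioned RIRI, 48.5 to 55.4% in normoxic RIRI, 66.6 to 69.0% in preconditioned sham and 71.6 to 72.4% in normoxic sham kidneys. C3 made up 13.6 to 27.4% in preconditioned RIRI, 4.95 to 8.48% in normoxic RIRI, 1.39 to 1.94% in preconditioned sham and 0.590 to 0.877% in normoxic sham kidneys. The FPKM of Cfb stood over that of C3 by a factor of 1.66 to 3.76 in preconditioned RIRI, 5.73 to 11.2 in normoxic RIRI, 34.4 to 49.6 in preconditioned sham and 82.6 to 122 in normoxic sham kidneys. The summed level of the 9 genes was 305 ± 35.1 FPKM in preconditioned RIRI, 197 ± 12.3 in normoxic RIRI, 270 ± 9.19 in preconditioned sham and 269 ± 5.42 in normoxic sham kidneys (SD, n = 3 each).

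**Figure D1:**
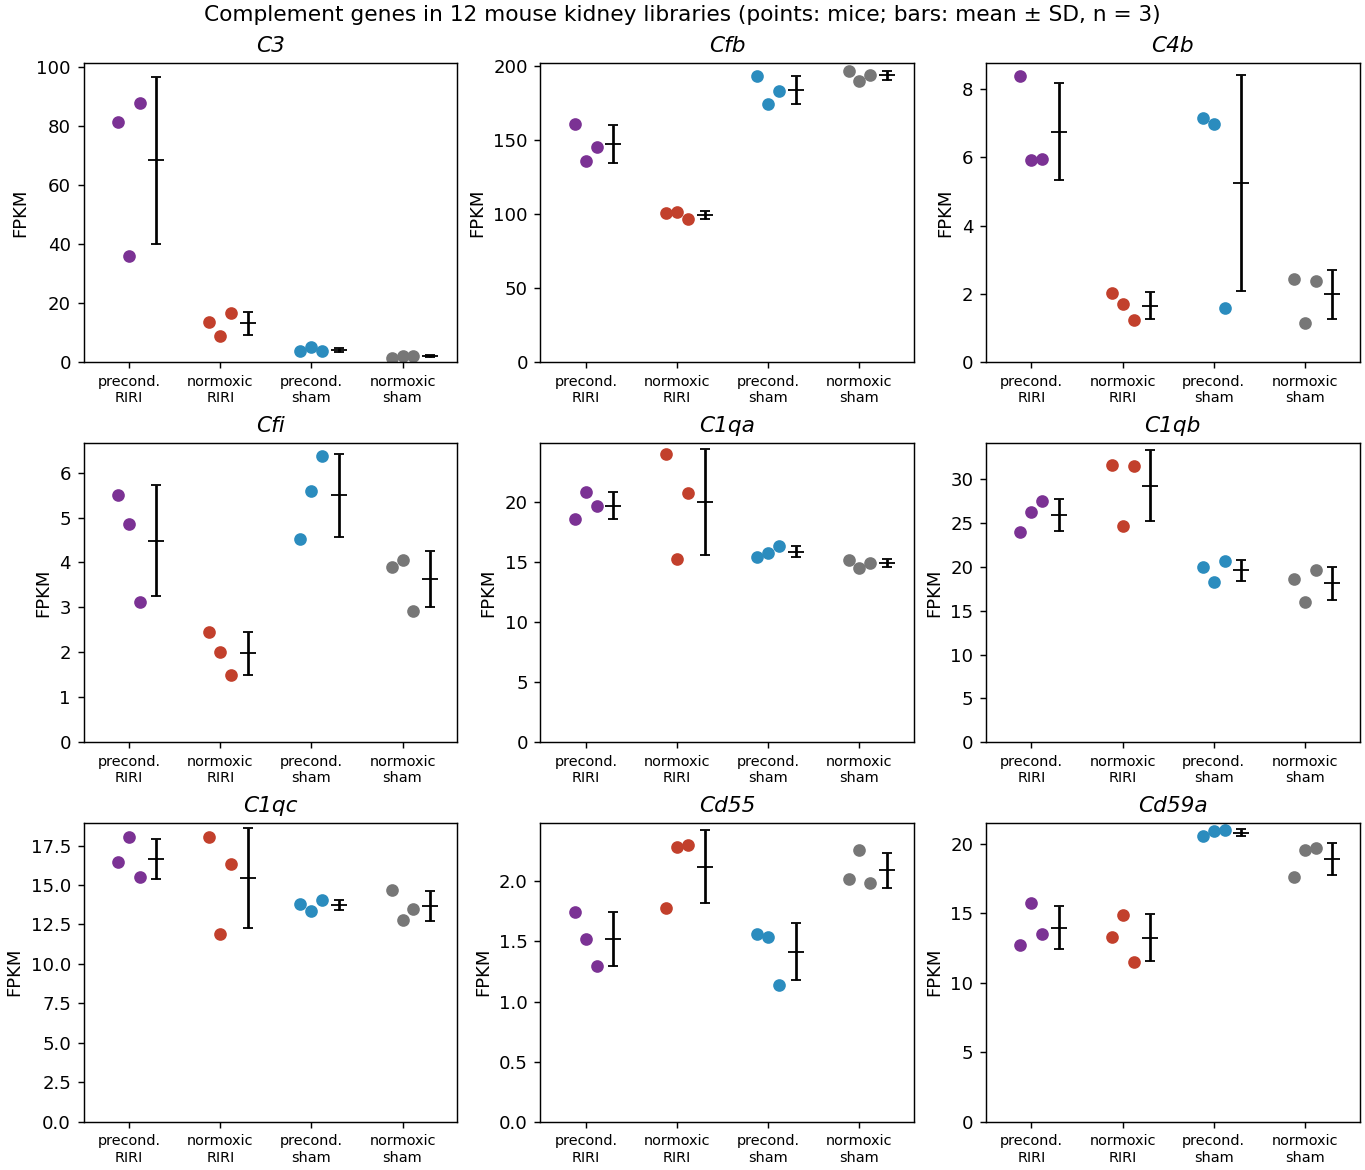
FPKM of the 9 complement genes in each of the 12 libraries, 1 panel per gene and 1 point per mouse, with the mean and SD of each group of 3 beside the points, and vertical axes that start at 0 and differ between panels. C3 was highest in preconditioned RIRI (36.1 to 87.9 FPKM) and lowest in normoxic sham kidneys (1.61 to 2.31 FPKM), whereas Cfb was lowest in normoxic RIRI kidneys (96.6 to 101 FPKM).

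Differences were tested with limma across all 12357 genes that passed the filter, on log2(FPKM + 1). The threshold for a call was a p under 0.05 after Benjamini-Hochberg adjustment over all of them. Log2 differences are the first group named minus the second, with the standard error (SE) of the fit, and they understate the change of genes with a low FPKM. With injury in normoxic mice, 3 of the 9 genes rose and 3 fell, 66.7% of them, where 71.7% of all tested genes were called (41.6% rose and 30.1% fell). The values of the groups did not overlap in 6 of the 9, where they did not in 74.3% of all tested genes. Preconditioned RIRI kidneys had 4 of the genes higher and 1 lower than normoxic RIRI kidneys, 55.6%, beside 42.1% of all tested genes (24.7% higher and 17.4% lower), and 5 of the 9 did not overlap, beside 47.7% of all. Against preconditioned sham kidneys, 2 rose and 2 fell in preconditioned RIRI kidneys, 44.4%, beside 52.4% of all tested genes (33% rose and 19.4% fell), and 6 of the 9 did not overlap, beside 63.3% of all. Between the sham groups limma called 0 of the 9, where it called 0.421% of all tested genes, and 5 of the 9 did not overlap, beside 29.4% of all. The median log2 difference of the 9 was 0.01 in normoxic RIRI against normoxic sham (0.10 over all genes), 0.12 in preconditioned RIRI against normoxic RIRI (0.06), 0.26 in preconditioned RIRI against preconditioned sham (0.10) and 0.11 between the sham groups (0.06). The comparisons share groups: normoxic RIRI kidneys enter both the first and the second, so their values are not independent of each other.

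**Figure D2:**
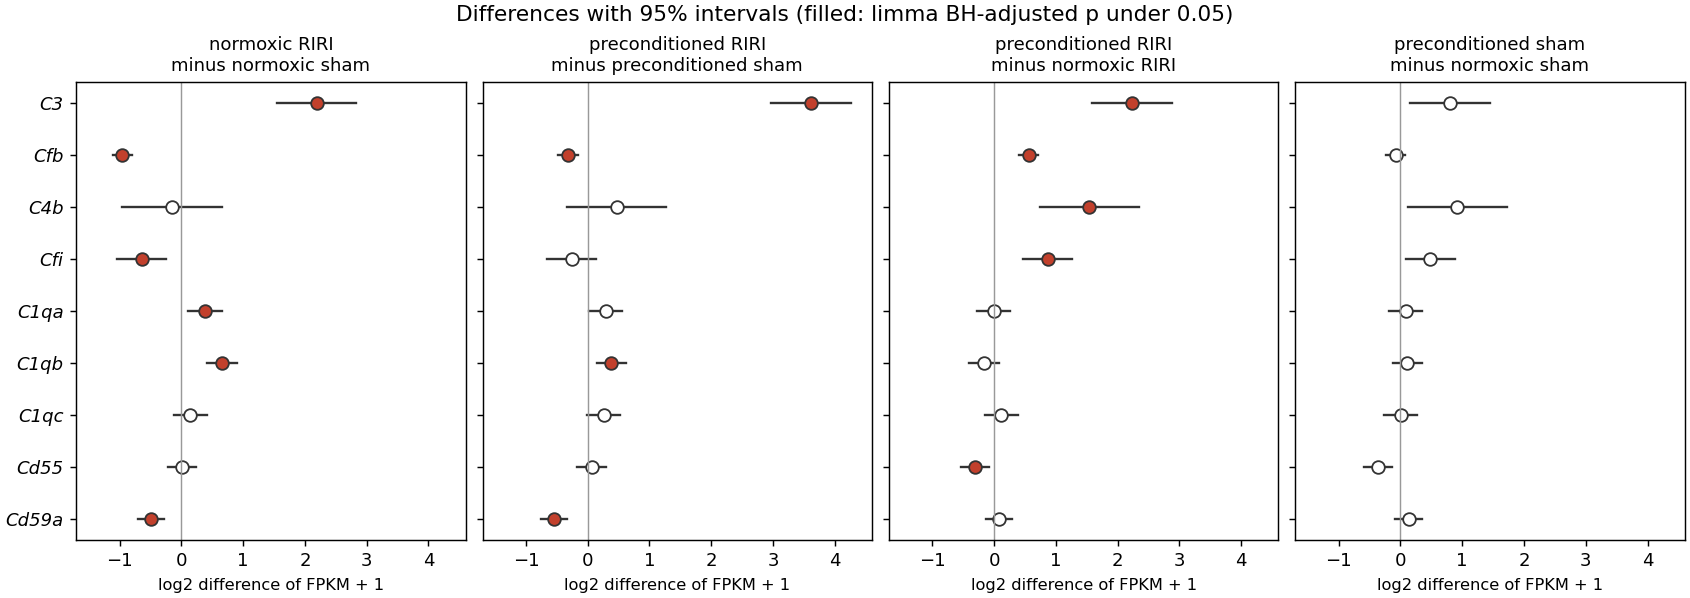
Log2 differences of FPKM + 1 for the 9 genes in 4 comparisons, with 95% intervals from limma; filled points have an adjusted p under 0.05. C3 stands to the right of 0 in all 4 panels, filled in 3 of them, and Cfb is on the left of 0 in both injury comparisons and on the right in preconditioned RIRI minus normoxic RIRI.

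C3, the central component whose cleavage feeds every later step, was highest in injured kidneys of preconditioned mice. Its level was 81.5, 36.1 and 87.9 FPKM in preconditioned RIRI, 13.6, 9.07 and 16.9 FPKM in normoxic RIRI, 3.90, 5.08 and 3.94 FPKM in preconditioned sham, and 1.61, 2.31 and 2.20 FPKM in normoxic sham kidneys. No 2 groups overlapped, and the order of the groups was preconditioned RIRI, normoxic RIRI, preconditioned sham, normoxic sham. The second preconditioned RIRI kidney had less than either of its group mates but more than any kidney of another group. Behind these values were 283 to 15785 reads per library.

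C3 rose with injury in normoxic mice, with a log2 difference of 2.19 ± 0.29 (SE) and an adjusted p of 3.22e-05 in limma, and a ratio of mean FPKM of 6.47. It rose further in preconditioned RIRI against normoxic RIRI kidneys, by 2.23 ± 0.29 (adjusted p 0.0002), with means of 68.5 ± 28.2 and 13.2 ± 3.91 FPKM (SD, n = 3 each), a ratio of 5.19. Within preconditioned mice, RIRI against sham, the log2 difference was 3.62 ± 0.29 (adjusted p 2.37e-06). These 3 calls held in all 21 alternative settings tried. In preconditioned sham against normoxic sham kidneys the difference was 0.80 ± 0.29 with an adjusted p of 0.26, which did not pass, and its 95% interval was 0.16 to 1.45.

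The injury effect on C3 was larger in preconditioned than in normoxic mice, by 1.43 ± 0.42 on the log2 scale (interaction in limma, adjusted p 0.029). That call was kept in 10 of 20 alternative settings, over which the effect stayed between 1.20 and 1.83. It was lost without preconditioned RIRI mouse 1 (adjusted p 0.0598) or mouse 3 (0.059), normoxic RIRI mouse 2 (0.0595), preconditioned sham mouse 1 (0.0652) or mouse 3 (0.06), and normoxic sham mouse 2 (0.0627) or mouse 3 (0.0608). It was also lost with a pseudocount of 0.1 (0.0588), without the filter (0.0824) and with limma voom on recovered reads (0.108). Of the 9 genes limma called 2 in the interaction, C3 and Cfb, 22.2%, both of them higher, where 23.9% of all tested genes were called and 11.3% were higher.

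Cfb encodes factor B, the protease that joins C3b to form the C3 convertase of the alternative pathway, and it moved in the other direction from C3 with injury. Its level was 161, 136 and 146 FPKM in preconditioned RIRI, 101, 101 and 96.6 FPKM in normoxic RIRI, 193, 175 and 183 FPKM in preconditioned sham, and 197, 190.3 and 194 FPKM in normoxic sham kidneys. The sham groups overlapped, both RIRI groups lay below them, and the preconditioned RIRI kidneys lay above the normoxic RIRI kidneys.

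Cfb fell with injury in normoxic mice (log2 difference -0.95 ± 0.07, adjusted p 2.86e-07 in limma), to 99.6 ± 2.61 FPKM in normoxic RIRI, against 194 ± 3.32 FPKM in normoxic sham kidneys. It also fell with injury in preconditioned mice (-0.32 ± 0.07, adjusted p 0.00303), and in preconditioned RIRI against normoxic RIRI kidneys it was higher by 0.56 ± 0.07 (adjusted p 0.000176). The injury effect was thus 0.64 ± 0.10 less negative in preconditioned mice (interaction, adjusted p 0.00193). All of these calls held in every alternative setting tried. The sham groups differed by -0.08 (adjusted p 0.678). Gm20547, an annotated gene that spans C2 and Cfb on the same strand, has no row in the table, and how shared reads were assigned is not given in the sources used here.

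C4b encodes mouse complement C4, which the classical and lectin pathways cleave to build their C3 convertase. Its level was 8.39, 5.91 and 5.93 FPKM in preconditioned RIRI, 2.03, 1.70 and 1.23 FPKM in normoxic RIRI, 7.15, 6.96 and 1.60 FPKM in preconditioned sham, and 2.43, 1.15 and 2.38 FPKM in normoxic sham kidneys. Of the 6 preconditioned kidneys 5 lay above all 6 normoxic kidneys, and the third preconditioned sham kidney lay among the normoxic ones.

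C4b was higher in preconditioned RIRI than in normoxic RIRI kidneys, by 1.54 ± 0.37 (limma, adjusted p 0.00619), with means of 6.74 ± 1.42 and 1.65 ± 0.399 FPKM, and this held in all 21 alternatives. With injury alone, in normoxic RIRI against normoxic sham kidneys, the log2 difference was -0.15 with a 95% interval of -0.95 to 0.65 (adjusted p 0.725). For preconditioned sham against normoxic sham it was 0.92 ± 0.37 (adjusted p 0.293), and without the third preconditioned sham kidney it was 1.46 (adjusted p 0.0211). With injury in preconditioned mice it was 0.47 (adjusted p 0.3), and -0.07 without that same kidney. The interaction did not pass (0.62, 95% interval -0.51 to 1.76, adjusted p 0.408), so a different effect of preconditioning in injured and in sham kidneys was not shown. The paralog C4a has no row in the table, and reads of the 2 copies may have been counted together.

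C1qa, C1qb and C1qc encode the 3 chains of C1q, the recognition protein of the classical pathway, which tissue macrophages produce. C1qb stood at 24.0, 26.2 and 27.6 FPKM in preconditioned RIRI, 31.7, 24.6 and 31.6 FPKM in normoxic RIRI, 20.0, 18.3 and 20.6 FPKM in preconditioned sham, and 18.7, 16.1 and 19.7 FPKM in normoxic sham kidneys. Both RIRI groups lay above both sham groups, and the RIRI groups overlapped. C1qa stood at 18.5, 20.8 and 19.6 FPKM in preconditioned RIRI, 24.0, 15.3 and 20.7 FPKM in normoxic RIRI, 15.4, 15.7 and 16.4 FPKM in preconditioned sham, and 15.2, 14.5 and 14.9 FPKM in normoxic sham kidneys. C1qc stood at 16.4, 18.0 and 15.5 FPKM in preconditioned RIRI, 18.1, 11.9 and 16.4 FPKM in normoxic RIRI, 13.8, 13.4 and 14.0 FPKM in preconditioned sham, and 14.7, 12.8 and 13.5 FPKM in normoxic sham kidneys. The second normoxic RIRI kidney was the lowest of its group for each of the chains.

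With injury in normoxic mice, C1qb rose by 0.66 ± 0.11 (limma, adjusted p 0.000159) and C1qa by 0.38 ± 0.12 (adjusted p 0.0147), and C1qc differed by 0.15 (95% interval -0.12 to 0.42, adjusted p 0.295). The C1qb call held in all 21 alternatives. Quantile normalization ended the C1qa call (0.21, adjusted p 0.107), as did a fit of only the compared groups (adjusted p 0.0501) and the leave-out of normoxic RIRI mouse 1 (0.25, adjusted p 0.0603). C1qc passed only without normoxic RIRI mouse 2 (0.31, adjusted p 0.006), and it was 0.03 with median-ratio rescaling and -0.03 with quantile normalization. With injury in preconditioned mice C1qb rose by 0.38 ± 0.11 (adjusted p 0.0104), which quantile normalization ended (0.25, adjusted p 0.0542), and C1qa and C1qc differed by 0.29 (adjusted p 0.0643) and 0.26 (adjusted p 0.0938). A fit of only those groups called both, with adjusted p values of 0.00921 for C1qa and 0.0201 for C1qc. Leaving out normoxic RIRI mouse 1 called C1qa (adjusted p 0.0238), and leaving out mouse 2 called both (0.00415 and 0.012).

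Between the injured groups, preconditioned RIRI minus normoxic RIRI was -0.00 for C1qa (95% interval -0.27 to 0.27, adjusted p 0.985), -0.16 for C1qb (-0.40 to 0.07, adjusted p 0.244) and 0.12 for C1qc (-0.15 to 0.39, adjusted p 0.456). C1qb passed that test only without normoxic RIRI mouse 2 (-0.28, adjusted p 0.0402). The 3 chains summed to 59.0 to 65.0 FPKM in preconditioned RIRI, 51.8 to 73.8 in normoxic RIRI, 47.4 to 51.0 in preconditioned sham and 43.4 to 48.5 in normoxic sham kidneys. C1qb was the highest of the chains in every library, with 37.0 to 47.5% of their sum. The share of C1qb was 40.3 to 43.9% in preconditioned RIRI, 42.9 to 47.5% in normoxic RIRI, 38.6 to 40.6% in preconditioned sham and 37.0 to 40.9% in normoxic sham kidneys.

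Markers of macrophages did not move as 1 group. Of 16 listed markers 10 were tested, and in normoxic RIRI against normoxic sham kidneys 3 rose, Cd14 (4.33), Cd68 (2.81) and Ctss (0.78), and 4 fell, among them Csf1r (-1.37), the receptor for the main macrophage growth factor. Preconditioned RIRI against normoxic RIRI kidneys had 3 higher (Aif1 0.93, Cx3cr1 0.72 and Csf1r 0.38) and 2 lower (Cd14 -1.91 and Ctss -0.46). Of all tested genes, 41.6% rose and 30.1% fell in the first comparison, and 24.7% were higher and 17.4% lower in the second. The macrophage list summed to 163 to 168 FPKM in preconditioned RIRI, 229 to 278 in normoxic RIRI, 172 to 190.2 in preconditioned sham and 191 to 216 in normoxic sham kidneys. Cd74 alone gave 72.0 to 147 FPKM of that sum. Cd74 averaged 74.93 FPKM in preconditioned RIRI, 87.16 in normoxic RIRI, 120.3 in preconditioned sham and 138.8 in normoxic sham kidneys. Cd14 averaged 20.06, 84.85, 3.46 and 2.80 FPKM in the same order, so the high sum in normoxic RIRI kidneys leaned on this 1 marker. Trem2 was at 0 in 1 library, and the other 15 markers were above 0 in all 12. The part of macrophage number in the C1q values was not tested.

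**Figure D3:**
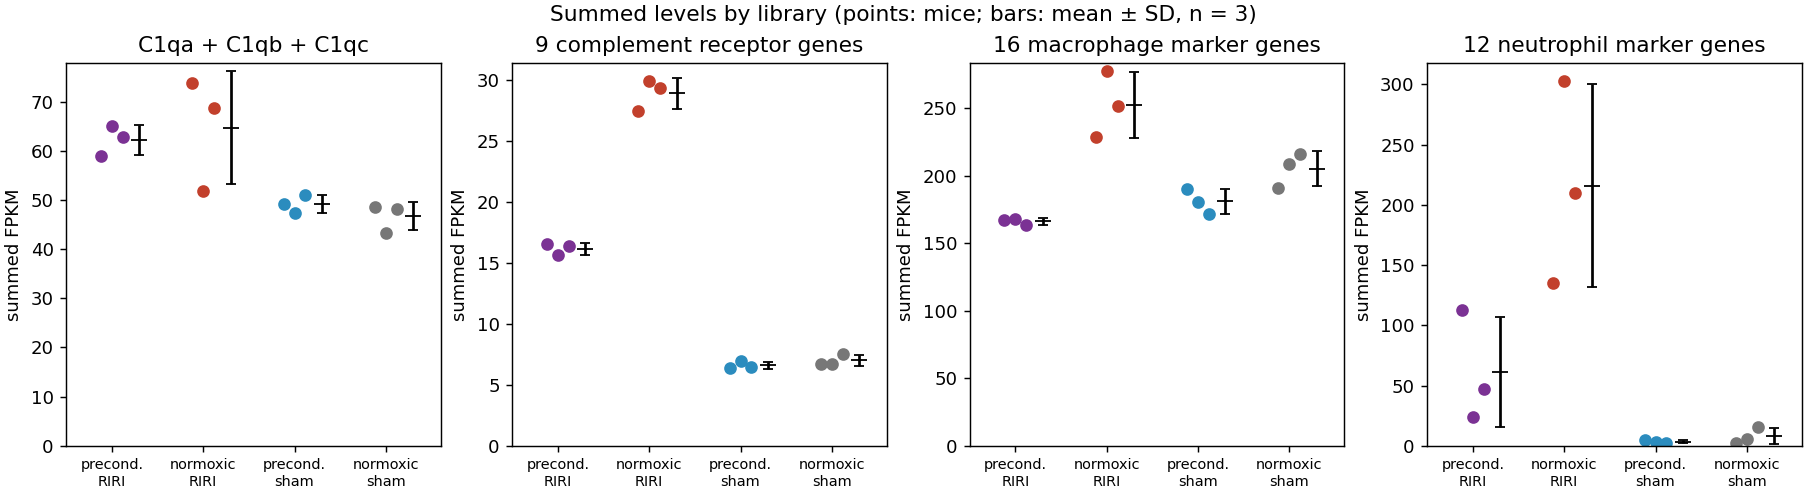
Summed FPKM per mouse of the 3 C1q chains, of 9 complement receptor genes, of 16 macrophage markers and of 12 neutrophil markers, with group means and SD (n = 3) and axes from 0. The C1q sum was above both sham groups in both RIRI groups, while the receptor sum was 15.6 to 16.5 FPKM in preconditioned RIRI and 27.4 to 29.9 FPKM in normoxic RIRI kidneys. Cd93 alone gave 7.64 of a mean receptor sum of 16.15 FPKM in preconditioned RIRI, and 16.48 of 28.88 FPKM in normoxic RIRI kidneys.

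Cfi encodes factor I, the plasma protease that inactivates C3b and C4b with the help of cofactors. Its level was 5.50, 4.86 and 3.11 FPKM in preconditioned RIRI, 2.44, 2.00 and 1.49 FPKM in normoxic RIRI, 4.52, 5.59 and 6.36 FPKM in preconditioned sham, and 3.91, 4.06 and 2.92 FPKM in normoxic sham kidneys. The 3 normoxic RIRI kidneys were the lowest of the 12, and the other groups overlapped their neighbours in order. Cfi fell with injury in normoxic mice (-0.64 ± 0.18, limma, adjusted p 0.00726) and was higher by 0.87 ± 0.18 in preconditioned RIRI than in normoxic RIRI kidneys (adjusted p 0.00303), with means of 4.49 ± 1.24 and 1.98 ± 0.478 FPKM. Both calls held in all 21 alternatives. With injury in preconditioned mice the difference was -0.26 (95% interval -0.66 to 0.14, adjusted p 0.251), between the sham groups it was 0.49 ± 0.18 (adjusted p 0.268), and the interaction of 0.38 did not pass (adjusted p 0.299). Reads behind Cfi numbered 107 to 444 per library.

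Cd55, or decay-accelerating factor, is a membrane protein that takes C3 convertases apart. Its level was 1.75, 1.52 and 1.29 FPKM in preconditioned RIRI, 1.78, 2.29 and 2.31 FPKM in normoxic RIRI, 1.56, 1.54 and 1.14 FPKM in preconditioned sham, and 2.02, 2.26 and 1.99 FPKM in normoxic sham kidneys. All 6 preconditioned kidneys lay below all 6 normoxic kidneys, by a narrow margin for preconditioned RIRI mouse 1 and normoxic RIRI mouse 1. Cd55 was lower in preconditioned RIRI than in normoxic RIRI kidneys (-0.31 ± 0.11, limma, adjusted p 0.0352), a call kept in 14 of 20 alternatives. It was lost without preconditioned RIRI mouse 2 (adjusted p 0.0765) or mouse 3 (0.12), without normoxic RIRI mouse 2 (0.101) or mouse 3 (0.106), without the filter (0.0793) and in a fit of only the compared groups (0.089). Preconditioned sham minus normoxic sham was -0.36 ± 0.11 (adjusted p 0.181). Injury gave 0.01 in normoxic mice (95% interval -0.22 to 0.24) and 0.06 in preconditioned mice (adjusted p 0.64). The copy Cd55b did not exceed 0.0342 FPKM, and the antisense gene Gm16083 did not exceed 0.0122 FPKM.

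Cd59a encodes the main mouse form of CD59, a membrane protein that blocks the terminal pore. Its level was 12.7, 15.7 and 13.5 FPKM in preconditioned RIRI, 13.3, 14.9 and 11.5 FPKM in normoxic RIRI, 20.5, 21.0 and 21.0 FPKM in preconditioned sham, and 17.6, 19.5 and 19.7 FPKM in normoxic sham kidneys. All 6 injured kidneys lay below all 6 sham kidneys, and the injured groups overlapped. Cd59a fell with injury in normoxic mice (-0.49 ± 0.10, limma, adjusted p 0.000692) and in preconditioned mice (-0.55 ± 0.10, adjusted p 0.000636), in every alternative tried. Preconditioned RIRI minus normoxic RIRI was 0.08 (95% interval -0.14 to 0.29, adjusted p 0.561), and the interaction was -0.06 (adjusted p 0.799).

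Between the sham groups no member was called, yet 5 of the 9 (C3, Cfi, C1qa, Cd55 and Cd59a) did not overlap, 55.6%, where 29.4% of all tested genes did not. At an unadjusted p under 0.05, limma listed 4 of the 9 (C3 0.0184, C4b 0.0284, Cfi 0.0207 and Cd55 0.00557), where it listed 14% of all tested genes, and voom on recovered reads called 0. C3, C4b and Cfi had the higher mean in preconditioned sham and Cd55 the lower.

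Scaling touched the small differences. The median of all genes in normoxic RIRI against normoxic sham kidneys was 0.10, and -0.00 after median-ratio rescaling. After that rescaling Cfb stood at -1.08, Cd59a at -0.61, C1qb at 0.54 and C1qa at 0.26, all still called. Of all genes called in preconditioned RIRI against normoxic RIRI kidneys 58.7% were higher, and 48.2% after either rescaling; in preconditioned RIRI against preconditioned sham kidneys 63.0% were higher, beside 49.4% (median-ratio) and 51.1% (quantile). Between the sham groups 44.2% of the calls were higher, beside 23.9% (median-ratio) and 23.3% (quantile).

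Beyond the 9 genes, 42 further complement genes were listed by pathway. Of these, 41 have a row in the table (C4a has none), 18 passed the filter and 23 lay under it, none above 1.32 FPKM. With injury 8 of the 18 rose and 7 fell in normoxic mice, and 6 rose and 7 fell in preconditioned mice. Preconditioned RIRI kidneys had 3 higher and 5 lower than normoxic RIRI kidneys. Between the sham groups limma called 0 of them, and 2 had an unadjusted p under 0.05. The called share was 83.3% with injury in normoxic mice (71.7% of all tested genes), 72.2% with injury in preconditioned mice (52.4% of all) and 44.4% between the injured groups (42.1% of all). Masp1, C5ar1 and Itgam passed the filter only through injured kidneys, and C8a and Cd59b would not have passed without the sham kidneys. The filter thus favoured their directions, and these counts and shares lean on it in part.

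**Figure D4:**
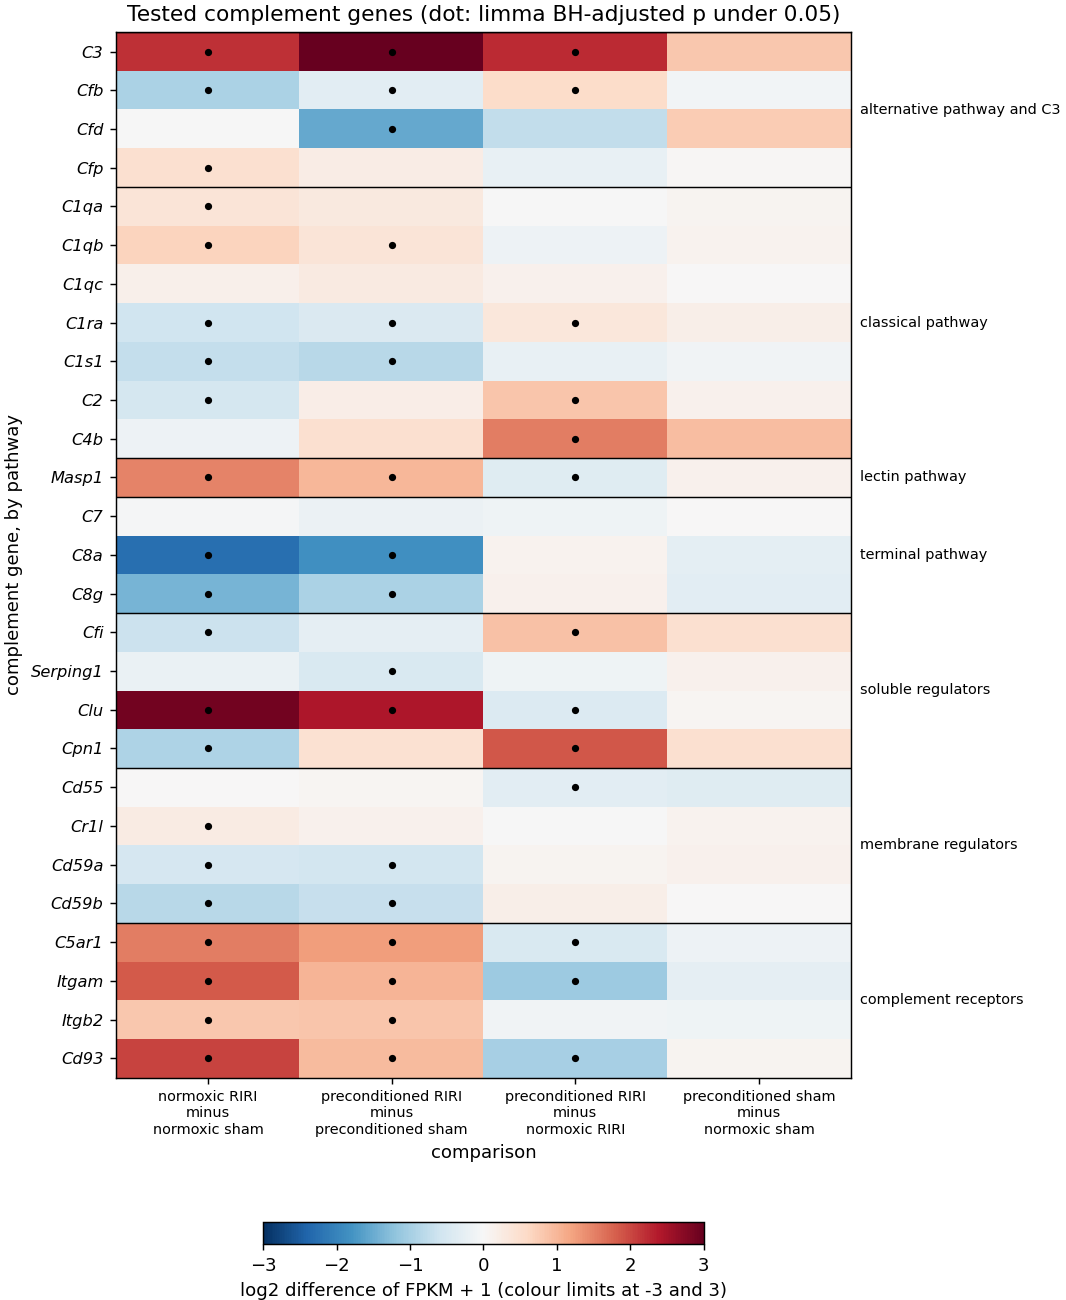
Log2 differences of FPKM + 1 for the 27 tested complement genes, grouped by pathway in rows and by comparison in columns, with a dot where limma's adjusted p is under 0.05; colours are limited at -3 and 3. Clu and C3 are the darkest red with injury, C8a and C8g are blue in both injury columns, and the sham column holds no dot.

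In the classical pathway, C2, the partner of C4 in the C3 convertase and the neighbour of Cfb, averaged 26.2 ± 4.55 FPKM in preconditioned RIRI, 14.3 ± 2.27 in normoxic RIRI, 22.7 ± 0.700 in preconditioned sham and 20.8 ± 1.94 in normoxic sham kidneys. C2 fell with injury in normoxic mice (-0.52, limma, adjusted p 0.00354), was higher by 0.83 in preconditioned RIRI than in normoxic RIRI kidneys (adjusted p 0.000563), and its injury effect differed between preconditioned and normoxic mice (interaction 0.71, adjusted p 0.018). The C1 proteases C1ra and C1s1 fell with injury in normoxic mice, C1ra at -0.59 (adjusted p 0.000894) and C1s1 at -0.72 (adjusted p 1.71e-05). They fell in preconditioned mice as well, C1ra at -0.44 (adjusted p 0.0101) and C1s1 at -0.84 (adjusted p 1.66e-05). Between the injured groups C1ra was higher in preconditioned RIRI by 0.34 (adjusted p 0.0434), though the groups overlapped, and C1s1 was at -0.22 (adjusted p 0.0657). In the lectin pathway only Masp1, a serine protease, passed the filter, and it rose with injury in normoxic (ratio of mean FPKM 8.37, adjusted p 3.04e-07) and preconditioned mice (ratio 4.14, adjusted p 2.89e-05). It reached at most 0.525 FPKM in sham kidneys and passed the filter only through injured kidneys, so the filter favoured this rise. Masp1 was lower in preconditioned RIRI than in normoxic RIRI kidneys (-0.37, adjusted p 0.0215).

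In the alternative pathway, Cfd, factor D, which cuts factor B, averaged 1.64 ± 0.195 FPKM in preconditioned RIRI, 4.39 ± 4.26 in normoxic RIRI, 6.59 ± 0.777 in preconditioned sham and 4.13 ± 2.85 in normoxic sham kidneys. It fell with injury in preconditioned mice (-1.52, limma, adjusted p 0.0256) and passed no other test. Cfp, properdin, which stabilises the alternative convertase, rose by 0.47 with injury in normoxic mice (adjusted p 0.00575). Of the terminal components, C8a and C8g, chains of C8, fell with injury. C8a was at -2.25 (adjusted p 1.3e-07) and C8g at -1.40 (adjusted p 6.15e-07) in normoxic mice, and C8a at -1.85 (adjusted p 2.77e-06) and C8g at -0.94 (adjusted p 4.88e-05) in preconditioned mice. C7 passed no test.

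Among the soluble regulators, Clu, clusterin, which binds the forming pore, was the most abundant complement gene in injured kidneys, with 663 ± 50 FPKM in preconditioned RIRI, 885 ± 169 in normoxic RIRI, 123 ± 4.62 in preconditioned sham and 117 ± 6.62 in normoxic sham kidneys. It rose with injury by 2.89 in normoxic (limma, adjusted p 3.06e-09) and 2.42 in preconditioned mice (adjusted p 6.8e-08), and was lower in preconditioned RIRI than in normoxic RIRI kidneys (-0.40, adjusted p 0.0157). Cpn1, the catalytic chain of carboxypeptidase N, which trims the peptides C3a and C5a, had 61.0, 87.7 and 52.3 FPKM in preconditioned RIRI, 25.2, 10.6 and 19.4 FPKM in normoxic RIRI, 53.0, 56.7 and 35.1 FPKM in preconditioned sham, and 33.5, 34.2 and 33.3 FPKM in normoxic sham kidneys. The normoxic RIRI kidneys were the lowest of the 12. Cpn1 was higher in preconditioned RIRI than in normoxic RIRI kidneys by 1.85 (adjusted p 0.000398), fell with injury in normoxic mice (-0.92, adjusted p 0.01), and had an interaction of 1.38 (adjusted p 0.0255). Serping1, the C1 inhibitor, fell with injury in preconditioned mice (-0.46, adjusted p 0.0337), with overlapping groups. Among the membrane regulators Cr1l rose by 0.25 (adjusted p 0.00644) and Cd59b, a paralog of Cd59a, fell (-0.84, adjusted p 0.000149) with injury in normoxic mice. Cd59b reached at most 0.666 FPKM in injured kidneys and passed the filter only through sham kidneys, so the filter favoured this fall.

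All 4 complement receptor genes tested rose with injury in both normoxic and preconditioned mice, and 3 of them were lower in preconditioned RIRI than in normoxic RIRI kidneys. Itgam and C5ar1 stayed under 1 FPKM in every sham kidney and passed the filter only through injured kidneys. The filter thus favoured their rise, and the count of 4 leans on it in part. Of all tested genes, 41.6% rose with injury in normoxic and 33% in preconditioned mice, and 17.4% were lower between the injured groups. Cd93, listed because it was first described as a receptor of C1q, averaged 7.64 ± 0.724 FPKM in preconditioned RIRI, 16.5 ± 3.15 in normoxic RIRI, 3.49 ± 0.164 in preconditioned sham and 3.28 ± 0.439 in normoxic sham kidneys. Itgam, the alpha chain of complement receptor 3, averaged 1.35 ± 0.237 FPKM in preconditioned RIRI, 3.97 ± 0.312 in normoxic RIRI, 0.160 ± 0.0485 in preconditioned sham and 0.394 ± 0.0634 in normoxic sham kidneys. C5ar1, the receptor of C5a, averaged 1.98 ± 0.316 FPKM in preconditioned RIRI, 3.06 ± 0.371 in normoxic RIRI, 0.254 ± 0.123 in preconditioned sham and 0.393 ± 0.0736 in normoxic sham kidneys. These receptors were low in both sham groups and highest in normoxic RIRI kidneys. Between preconditioned RIRI and normoxic RIRI kidneys the differences were -1.08 for Itgam (limma, adjusted p 1.9e-05) and -0.45 for C5ar1 (adjusted p 0.0072), Cd93 had a ratio of mean FPKM of 0.464 (adjusted p 0.000131), and Itgb2, the beta chain of the same receptor as Itgam, was at -0.10 (adjusted p 0.623). The interaction was negative for Itgam (-0.82, adjusted p 0.00213) and Cd93 (-1.08, adjusted p 0.00201). Of 12 neutrophil markers 8 were tested: all 8 rose with injury in normoxic mice, 6 rose in preconditioned mice, and all 8 were lower in preconditioned RIRI than in normoxic RIRI kidneys. Mmp8, Mmp9, Cxcr2 and Il1r2 had a mean over 1 FPKM only in normoxic RIRI kidneys, and Csf3r and Retnlg only in the RIRI groups. The filter thus favoured markers high in those groups, so these counts are not independent of it. The neutrophil list summed to 24.0 to 113 FPKM in preconditioned RIRI, 135 to 303 in normoxic RIRI, 1.89 to 4.62 in preconditioned sham and 2.55 to 15.2 in normoxic sham kidneys, with Camp at 0 in 8 libraries, Ly6g in 6, Ngp in 5, and Cxcr2 and Il1r2 in 1 each. The part of neutrophil number in the receptor values was not tested.

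Other marker lists were measured beside the complement genes. Of all tested genes, 41.6% rose and 30.1% fell with injury in normoxic mice, and 33% rose and 19.4% fell in preconditioned mice. Between the injured groups 24.7% of all tested genes were higher and 17.4% lower in preconditioned RIRI kidneys. All 12 proximal tubule markers fell with injury in normoxic and in preconditioned mice, and 7 of them were higher and 0 lower in preconditioned RIRI than in normoxic RIRI kidneys. Between the sham groups limma called 0 of the 12. That list summed to 15840 to 21280 FPKM in preconditioned RIRI, 18460 to 24400 in normoxic RIRI, 32580 to 37480 in preconditioned sham and 47820 to 52990 in normoxic sham kidneys, with none of its markers at 0. Kap, an abundant kidney transcript, made up 78.2 to 89.7% of that sum, and was called neither between the injured groups (-0.26, adjusted p 0.139) nor between the sham groups (-0.58, adjusted p 0.102). The other 11 markers summed to 2602 to 3120 FPKM in preconditioned RIRI, 2203 to 2721 in normoxic RIRI, 7101 to 7309 in preconditioned sham and 7062 to 7651 in normoxic sham kidneys. The tubular injury list, which also holds Clu, had 12 of 12 markers higher with injury in both kinds of mice and 10 of 12 lower in preconditioned RIRI than in normoxic RIRI kidneys. No marker of this list was lost to the filter, though Havcr1, Krt20 and Sox9 had means under 1 FPKM in both sham groups. Its sum was 8975 to 10470 FPKM in preconditioned RIRI, 14200 to 17800 in normoxic RIRI, 731 to 853 in preconditioned sham and 602 to 635 in normoxic sham kidneys. Of 7 liver markers 6 were tested: 1 rose and 3 fell with injury in normoxic mice, 1 rose and 2 fell with injury in preconditioned mice, 3 were higher and 0 lower in preconditioned RIRI than in normoxic RIRI kidneys, and 0 were called between the sham groups. Serpina1a averaged 27.96 FPKM in preconditioned RIRI and 8.57 in normoxic RIRI kidneys (1.75, limma, adjusted p 0.00232), and Apoa1 averaged 1.41 FPKM in preconditioned RIRI and 0.399 in normoxic RIRI kidneys (0.74, adjusted p 0.00824). Alb stood at 1.53 to 4.95 FPKM and passed no test, and Ahsg was at 0 in 11 libraries. Fgb was at 0 in 4 libraries, and averaged 41.2 FPKM in preconditioned RIRI, 68.7 in normoxic RIRI, 0 in preconditioned sham and 0.355 in normoxic sham kidneys. The liver list summed to 68.8 to 215.5 FPKM in preconditioned RIRI, 60.8 to 272 in normoxic RIRI, 140.5 to 264.5 in preconditioned sham and 159.5 to 184 in normoxic sham kidneys. Ttr averaged 49.2, 64.5, 144 and 149 FPKM in the same order, so these sums leaned on Ttr and, in RIRI kidneys, on Fgb. The part of tubule loss in the values of Cfb, Cfi and C8a, and of RNA of liver type in those of C3, C4b and Cfi, was not tested.

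Genes with the nearest profile were found by the root mean square (RMS) difference of log2(FPKM + 1) over the 12 libraries, each gene taken relative to its own normoxic sham mean, with predicted genes and pseudogenes passed over. Nearest to C3 were Aldh1a7 (RMS 0.71), Serpina10 (0.716) and Smpdl3b (0.869), where the median gene was at 2.42. Nearest to C4b were Il17rb (0.434), Them6 (0.564) and Slc13a1 (0.574; median 0.935), and nearest to Cfi were Fhod3 (0.166), Spc25 (0.201) and Haghl (0.201; median 0.572). Nearest to Cfb were Sipa1l1 (0.0717), Ddah1 (0.0813) and Zhx1 (0.093; median 0.664). C1qa was nearest to Mea1 (0.0755), Ubap2 (0.0819) and Abhd11 (0.084; median 0.361), Cd55 to Galnt3 (0.127), Yaf2 (0.135) and Rnf144a (0.138; median 0.470), and Cd59a to Mgat5 (0.0684), Atp5g3 (0.0711) and Ddrgk1 (0.0791; median 0.523). A small RMS marks likeness of levels over these libraries. By RMS alone, C3 and C4b had no neighbour as close as those of Cfb, Cfi, C1qa, Cd55 and Cd59a. The median gene also stood furthest from C3 and C4b, so the RMS values of different members are not on 1 scale. C1qb and C1qc were not searched.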

How the data were processed

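RNA was sequenced from kidneys of 12 mice, 3 per group. Per the labels, RNA came from frozen tissue (TRIzol), libraries from a VAHTS Universal V10 kit and reads from a DNBSEQ-T7. The authors deposited 1 table of FPKM values for 25553 genes. The submitters' processing notes name mm10, HTSeq and DESeq2 without versions. Which aligner, annotation and strand setting were used is not given in the sources used. The steps of the FPKM values gave whole reads for all 25553 genes (100.0%). The tolerance was 0.0001 of a read, and looser for any gene that needed a search over gene lengths. Totals lay within 0.0354% of the depth, which was itself derived from the same FPKM values. Among 66 library pairs none shared an equal FPKM above 0, and their reads differed beyond counting noise (chi-square per gene at least 10.5).

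The 12357 genes that reached an FPKM of 1 in at least 3 libraries were tested on log2(FPKM + 1) with limma 3.58.1 in R 4.3.3, with a mean-variance trend and 1 fit of 4 group means to all 12 libraries. Adjusted p values are Benjamini-Hochberg over all tested genes. P-values measure the spread between these mice. Count models were not used on FPKM, except limma voom on recovered reads as an alternative chosen after seeing the data (it called 8859, 5338, 62, 6494 and 2935 genes in the comparisons of normoxic RIRI with normoxic sham, preconditioned with normoxic RIRI, preconditioned with normoxic sham, preconditioned RIRI with preconditioned sham, and the interaction). Other alternatives changed the pseudocount (0.1), the filter (none, or FPKM 5), the scaling (median-ratio or quantile), the samples fitted (only the compared groups, or 1 library left out), the trend (none) or added the replicate number as a block. The scripts were tested on simulated data.

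Positions and promoters are from RefSeq (GRCm38.p6). The members and lists were chosen with earlier results of these data known. Named genes were all 9 members and, of the other listed complement genes, those called with a log2 difference of at least 1 or the 2 with the smallest adjusted p of each list; a few others are given as values. 1 listed complement gene is not reported here and is left out of the counts. Further marker lists were measured and are used in no result. The proteome of the study was not analysed here.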

Additional observations from a re-analysis of the deposited data

Results flagged for a closer look

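Each of the following was flagged because the effect of injury differed between preconditioned and normoxic mice in the interaction test of limma, with the value as the log2 injury effect of preconditioned minus that of normoxic mice. That test called 2 of the 9 genes (22.2%) and 5 of the 18 other complement genes (27.8%), beside 23.9% of all tested genes. C3 had 1.43 (adjusted p 0.029), with injury effects of 3.62 in preconditioned and 2.19 in normoxic mice, and kept this call in 10 of 20 alternative settings. Cfb had 0.64 (adjusted p 0.00193), with -0.32 in preconditioned and -0.95 in normoxic mice. C2 had 0.71 (adjusted p 0.018) and Cpn1 had 1.38 (adjusted p 0.0255). Masp1 had -0.50 (adjusted p 0.0412), Itgam had -0.82 (adjusted p 0.00213) and Cd93 had -1.08 (adjusted p 0.00201). Groups of 3 mice were not tested for outlying samples.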

How the results depend on the processing

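Of the single-gene results under the alternatives, 901 kept their side of the threshold, 20 lost the call and 10 gained one. No called value changed sign. Some small differences that were not called did, such as C1qc between the sham groups in 5 of 21 settings. The counts moved by over 1.5 times as follows. With a filter at FPKM 5, which tests fewer genes, the other complement genes called were 9 (15 before) with injury in normoxic mice, 5 (8 before) in preconditioned RIRI against normoxic RIRI and 8 (13 before) in preconditioned RIRI against preconditioned sham kidneys. A fit of only the groups compared, with fewer samples, called 3373 genes (5203 before) and 5 other complement genes in preconditioned RIRI against normoxic RIRI, and 303 genes (52 before) and 1 member, C3 (adjusted p 0.0301), between the sham groups. A pseudocount of 0.1 called 31 genes between the sham groups. The members called in the interaction were 1 with that pseudocount, 1 without the filter and 1 with limma voom, against 2, since C3 was lost; the cause was not tested.

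Leaving out 1 library at a time gave 23 to 80 genes and 0 to 1 members between the sham groups, 1 to 2 members and 3 to 8 other complement genes in the interaction (3 without preconditioned RIRI mouse 2, preconditioned sham mouse 3 or normoxic sham mouse 1, 8 without normoxic RIRI mouse 2), 5 (without preconditioned RIRI mouse 2) to 10 other complement genes in preconditioned RIRI against normoxic RIRI, and elsewhere counts within 1.5 times of those reported. Between the sham groups the count was 31 without preconditioned sham mouse 1, 30 without mouse 3, 27 without normoxic sham mouse 1, 23 without mouse 2 or mouse 3, and 80 without preconditioned RIRI mouse 2; the member gained was C4b, without preconditioned sham mouse 3. With the replicate number as a block, limma called 8819, 5057, 35, 6331 and 2700 genes in the 5 comparisons in the order of the methods, and the counts of members stayed 6, 5, 0, 4 and 2. A pairing of mice by replicate number was not shown: 18 same-numbered pairs correlated at -0.25 to 0.17, 4 of them over 0.1, and 6 of 12 libraries correlated best with their own number. This check cannot exclude a pairing, since it compares deviations from means of only 3 libraries. The number of mice, 3 per group, limits the precision.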
